A study of Mus musculus with 9 samples.

Results

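The colony-stimulating factors and their receptors were examined as 7 genes, taken by symbol from the count tables: the ligand gene *Csf1* and the receptor genes *Csf1r*, *Csf3r*, *Csf2ra*, *Il3ra*, *Csf2rb*, and *Csf2rb2*. They are 7 of 50559 genes listed, and all 7 were among the 16618 genes with enough counts to be tested. RNA was sequenced from myeloid cells sorted as CD45+CD11b+ from the quadriceps of *mdx* mice, which lack dystrophin and serve as a model of Duchenne muscular dystrophy. All mice were *mdx*, were 4.5 weeks old at collection, and had received vehicle, the mineralocorticoid receptor antagonist spironolactone, or the glucocorticoid prednisolone in their drinking fluid for 7 days, so no healthy muscle stands beside them. Each group had 3 libraries and each library pooled cells of 3 mice, so the spread between libraries is the spread between pools. Mice of both sexes were used, and the sexes within each pool were not given.

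CSF1 (M-CSF) keeps monocytes and macrophages alive and dividing through CSF1R, a receptor tyrosine kinase that also binds IL-34. G-CSF acts on neutrophils and their precursors through CSF3R. GM-CSF, IL-3, and IL-5 each bind an alpha chain of their own (CSF2RA, IL3RA, IL5RA) that signals only with a beta chain, the common chain CSF2RB or, in mice and for IL-3 alone, its close relative CSF2RB2. The alpha and beta chains and CSF3R signal through Janus kinases to STAT5 and STAT3. In injured and dystrophic muscle these factors are known to govern the entry and survival of the myeloid cells that clear necrotic fibers.

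The 9 libraries held 31469815 to 32943512 counts on genes. The leukocyte gene *Ptprc* (CD45) had group means of 574 to 615 CPM (counts scaled to a common library total) and *Itgam* (CD11b) had 1044 to 1407 CPM, as the sort implies. The groups or libraries differed in other marker lists. The summed level of 10 neutrophil genes was 4521 CPM in vehicle replicate 3 and 3388 CPM in spironolactone replicate 3, against 369 to 1032 CPM in the other 7 libraries. Both are called neutrophil-rich here. Spironolactone replicates 1 and 2 had 1023 and 1032 CPM, above prednisolone libraries (390 to 556 CPM) and vehicle replicates 1 and 2 (369 and 487 CPM). The sum thus did not overlap between the drugs, also with the neutrophil-rich libraries left out. The summed level of 7 monocyte genes, most of it *Fn1*, was 6769 to 8352 CPM in prednisolone libraries, 4884 to 6103 CPM in vehicle libraries, and 3454 to 4778 CPM in spironolactone libraries. Without *Fn1* the other 6 summed to 1765 to 2283 CPM with prednisolone, inside or just above the 994 to 2199 CPM of vehicle, and to 1373 to 1680 CPM with spironolactone. The classical monocyte genes *Ly6c2*, *Plac8*, and *Ccr2* ran the other way, with log2 differences between prednisolone and vehicle of -0.84, -1.02, and -0.16, none of them called. The summed level of 8 resident macrophage genes overlapped between all groups (1926 to 2379 CPM), and that of 7 pan-myeloid genes overlapped between each drug and vehicle (14680 to 18294 CPM). The pan-myeloid sum did not overlap between the drugs, at 15370.5 to 16881.4 CPM with spironolactone and 17030.5 to 18294.4 CPM with prednisolone. The 6 endothelial genes summed to 116 to 176 CPM in spironolactone libraries against 52.1 to 92.8 CPM in the rest. In such bulk RNA, fewer cells of a type and less RNA per cell cannot be told apart.

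All 7 genes ranked at 1423 or higher of 15408 genes by level (shown in the plot of levels per exon length). In TPM, counts scaled by exon length and library total so that genes can be compared, *Csf2ra* and *Csf1r* were the most abundant, with 1026 ± 44.7 and 983 ± 109 TPM (SD, n = 9), ranks 128 and 137. *Csf3r* followed at 444 ± 67.8 TPM, and its range of 374 to 579 TPM touched neither neighbor. *Csf2rb* (214 ± 37.7 TPM), *Csf1* (189 ± 50.7 TPM), *Csf2rb2* (130.4 ± 17.8 TPM), and *Il3ra* (110.2 ± 8.56 TPM) formed a lower run. In vehicle and in spironolactone libraries each gene of this run overlapped the next in the order. In prednisolone libraries the 4 genes did not overlap, with *Csf2rb* at 252 to 272 TPM, *Csf1* at 225 to 244 TPM, *Csf2rb2* at 139.6 to 162 TPM, and *Il3ra* at 101 to 115 TPM. *Csf2ra* and *Csf1r* overlapped in every group, so their order is within their spread. The alpha chain gene of the GM-CSF receptor thus had more RNA per length than the gene of the chain it pairs with. Protein was not measured here. Reads that could not be placed between *Csf2rb* and its close relative *Csf2rb2* may lower the *Csf2rb* level by an unknown amount. The TPM ratio of *Csf2ra* to *Csf2rb* was 4.76 to 5.95 in vehicle, 4.86 to 5.87 in spironolactone, and 3.92 to 4.24 in prednisolone libraries, where it was lower than in every library of the other groups. The ratio of *Csf2ra* to *Il3ra* overlapped between groups and lay between 7.89 and 10.3.

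**Figure D1:**
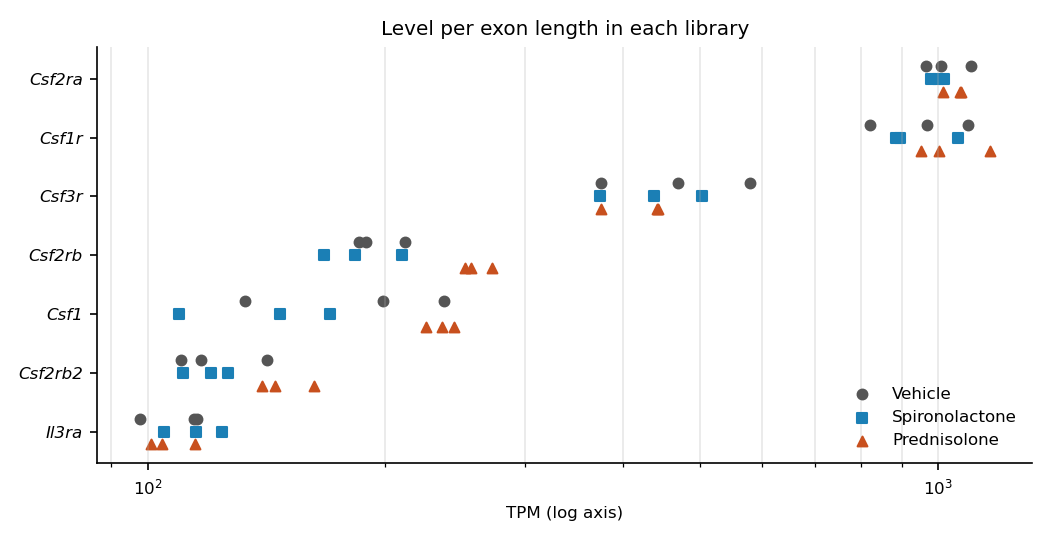
Level per exon length of the 7 genes in each of the 9 libraries, in TPM on a log axis, with 1 point per library and groups marked by shape and color. *Csf2ra* and *Csf1r* lay near 1000 TPM, *Csf3r* between 374 and 579 TPM, and the other 4 genes below 273 TPM, where neighbors overlapped in vehicle and spironolactone but not in prednisolone libraries.

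The comparisons asked whether either drug changed these genes and whether the drugs differed. The counts of all 16618 genes were fitted together with edgeR, and a gene was called at a Benjamini-Hochberg adjusted p below 0.05. Prednisolone against vehicle called 0 of the 7 genes, where 1.76% of all genes tested were called, and 1 of the 7 had an unadjusted p under 0.05 (14.2% of all genes). In 2 genes, *Csf2rb* and *Csf2rb2*, every prednisolone library was above every vehicle library, where 10.4% of all genes did so and 19.7% did not overlap in either direction. Spironolactone against vehicle called 0 of 7, where the background was 0.0181%, 0 had an unadjusted p under 0.05 (9.29% of all genes), and all 7 overlapped between the groups, where 13.5% of all genes did not. Spironolactone against prednisolone called 1 of 7, *Csf2rb*, where the background was 5.17%, and 4 had an unadjusted p under 0.05 (22.5% of all genes). The last comparison also had 3 genes, *Csf1*, *Csf2rb*, and *Csf2rb2*, with every spironolactone library below every prednisolone library. Of all genes, 30.3% did not overlap there in either direction and 15.2% were lower in spironolactone. The median log2 fold change of the 7 genes was 0.03, -0.03, and -0.04 in the 3 comparisons, in that order, and that of all genes tested was -0.01, 0.00, and 0.03. Both drug comparisons share the vehicle libraries.

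**Figure D2:**
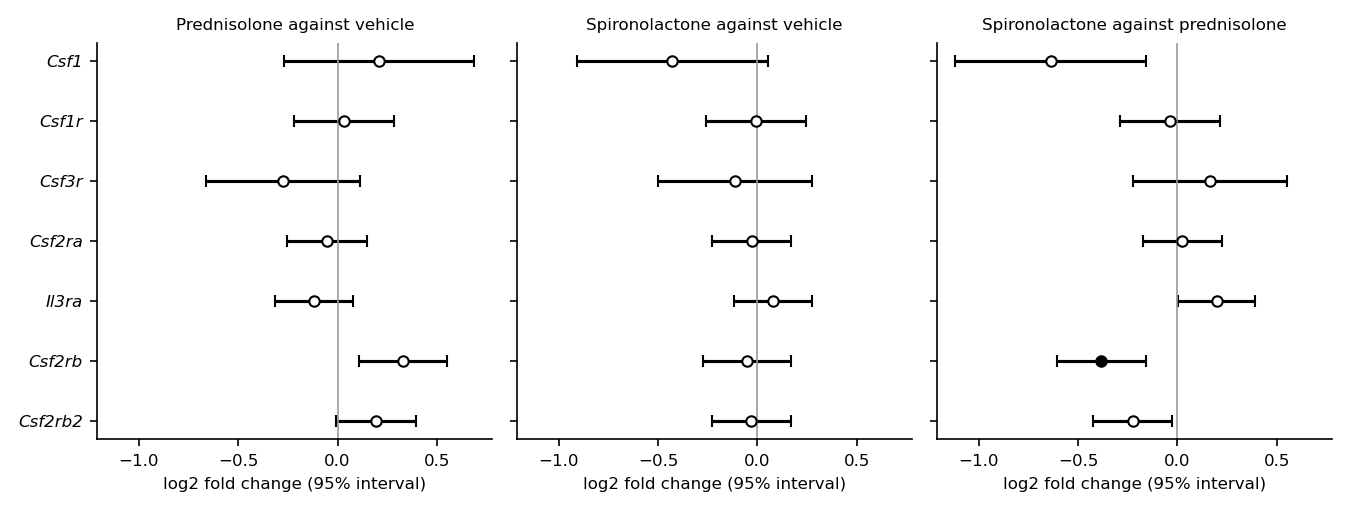
Log2 fold change of each gene in the 3 comparisons, as points with 95% intervals from the edgeR fit. The filled point is *Csf2rb* in spironolactone against prednisolone, the only one past an adjusted p of 0.05. The widest intervals belong to *Csf1* and *Csf3r*.

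*Csf1*, on chromosome 3 (GRCm39, 107648364 to 107667806, minus strand), encodes the only one of the factors that was abundant in the sorted cells. It measured 167, 271, and 327 CPM in vehicle replicates 1 to 3, 218, 199, and 152 CPM in spironolactone, and 313, 291, and 281 CPM in prednisolone. Vehicle libraries spanned nearly the whole range, and the drug groups lay apart from each other within it. *Csf1* was 0.64 log2 units lower in spironolactone than in prednisolone (SE 0.22, 95% interval -1.12 to -0.16), which did not pass adjustment (adjusted p = 0.116, edgeR). Neither difference from vehicle passed, with -0.43 ± 0.22 log2 units (SE, adjusted p = 0.589) for spironolactone and 0.21 ± 0.21 (adjusted p = 0.734) for prednisolone. The drug-to-drug difference was called by DESeq2 (adjusted p = 0.0164), in the fit of those groups alone (0.00681), without a low-count filter (5.76e-07), and without vehicle replicate 1 (0.00605), the lowest vehicle library. Without that library the difference from vehicle was -0.02 with prednisolone and -0.66 with spironolactone (adjusted p = 0.0963). The spironolactone value was -0.21 without vehicle replicate 3 and -0.07 without both neutrophil-rich libraries. *Fn1* was likewise higher in the prednisolone than in the spironolactone libraries, and its part in the *Csf1* values was not tested. The genes closest to *Csf1* across the 9 libraries were *Met*, *Il1rn*, and *Gm8459*, with root mean square differences of 0.11, 0.13, and 0.14 log2 units after centering, where the median gene differed by 0.46. *Met* encodes the receptor of hepatocyte growth factor and *Il1rn* the antagonist of the IL-1 receptor.

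**Figure D3:**
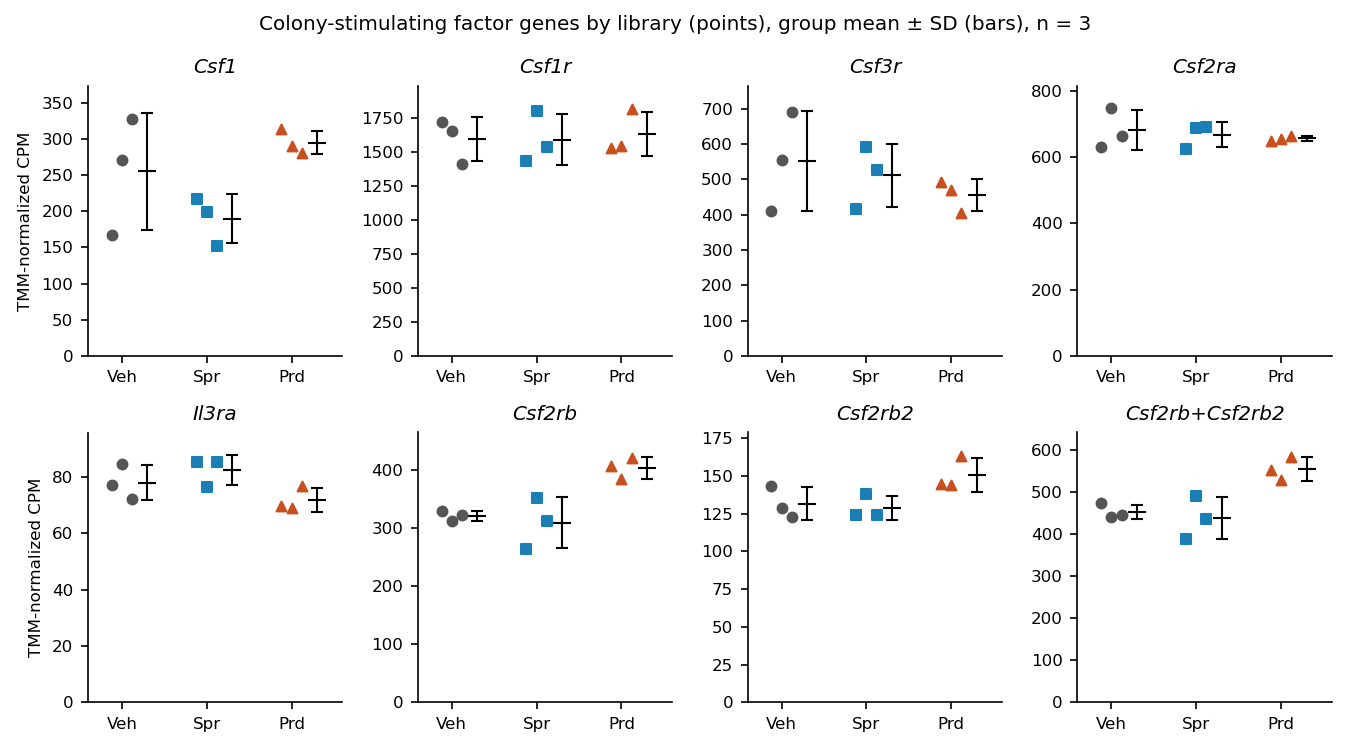
TMM-normalized CPM of the 7 genes and of the summed beta chain genes in vehicle (Veh), spironolactone (Spr), and prednisolone (Prd) libraries, with 1 point per library and bars for the group mean ± SD (n = 3). *Csf2rb* in the 3 prednisolone libraries (384 to 421 CPM) lay above the other 6 libraries (265 to 352 CPM), whereas the groups overlapped for *Csf1r*, *Csf3r*, *Csf2ra*, and *Il3ra*.

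The other ligand genes were near or at the limit of detection. No library held a count of *Il3*, which allows up to 3 counts, or 0.0891 to 0.0950 CPM, for counting error only. *Csf2* (GM-CSF) had 10 counts over all 9 libraries and *Il5* had 7, of which 6 lay in prednisolone replicate 1. *Csf3* (G-CSF) had 28 to 50 counts in vehicle libraries, 1 to 25 in spironolactone, and 5 to 34 in prednisolone, and *Il34*, the other ligand of CSF1R, had 24 to 27, 30 to 37, and 9 to 22. Spironolactone libraries thus held more *Il34* counts than any vehicle library, prednisolone libraries fewer. None of these differences was called for *Csf3* (adjusted p of 0.567 to 0.719) or *Il34* (adjusted p of 0.117 to 0.793, edgeR).

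*Csf1r*, on chromosome 18 (61229714 to 61266535, plus strand), encodes the receptor of CSF1 and IL-34 and had close group means. It measured 1718, 1657, and 1416 CPM in vehicle, 1436, 1802, and 1536 CPM in spironolactone, and 1531, 1547, and 1818 CPM in prednisolone. The groups overlapped almost fully, with means of 1597 ± 160.0, 1591 ± 189, and 1632 ± 161 CPM (SD, n = 3). The 95% intervals of the log2 difference from vehicle were -0.26 to 0.25 for spironolactone and -0.22 to 0.28 for prednisolone (adjusted p = 0.994 and 0.940, edgeR), which bounds any change but does not show equality. Its exons share 1461 exon bases with *Hmgxb3* on the opposite strand. That gene had 10992 counts in all 9 libraries together, and reads of the overlap cannot be assigned without knowing the strand setting.

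*Csf3r*, on chromosome 4 (125918262 to 125938236, plus strand), is the receptor gene most tied to neutrophils. It measured 409, 556, and 692 CPM in vehicle, 415, 592, and 525 CPM in spironolactone, and 493, 471, and 406 CPM in prednisolone. The highest value was in vehicle replicate 3, the library with the highest neutrophil gene sum. The other neutrophil-rich library, spironolactone replicate 3, was below spironolactone replicate 2 and vehicle replicate 2, and the prednisolone values fell inside the vehicle range apart from the lowest. The log2 differences were -0.27 ± 0.18 (SE) for prednisolone against vehicle, -0.11 ± 0.18 for spironolactone against vehicle, and 0.16 ± 0.18 for spironolactone against prednisolone (adjusted p = 0.544, 0.906, and 0.649, edgeR). With vehicle replicate 3 and spironolactone replicate 3 left out, the spironolactone difference from vehicle turned to 0.06 and that of prednisolone was -0.08. The prednisolone difference was also -0.08 without vehicle replicate 3 alone, and -0.45 without vehicle replicate 1. Between the drugs the *Csf3r* difference ran from 0.0412 to 0.29 with 1 library left out. The neutrophil gene sum ran from 369 to 4521 CPM over the libraries, whereas *Csf3r* ran from 406 to 692 CPM (shown in the plot of *Csf3r* against neutrophil genes). Of the 10 neutrophil genes, all were tested and none was called by edgeR in any comparison, where 1.76%, 0.0181%, and 5.17% of all genes were called. At an unadjusted p under 0.05 were 3, 0, and 4 of the 10, beside 14.2%, 9.29%, and 22.5% of all genes, with median log2 fold changes of -1.62 for prednisolone against vehicle and 1.77 for spironolactone against prednisolone. The defining surface gene *Ly6g* ranged from 0.156 to 13.6 CPM. The part of neutrophils in *Csf3r* was not tested. The genes with the pattern closest to that of *Csf3r* were *D16Ertd472e*, *Pdcd10*, and *Cytip*, with root mean square differences of 0.07, 0.09, and 0.10 log2 units, where the median gene differed by 0.35.

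**Figure D4:**
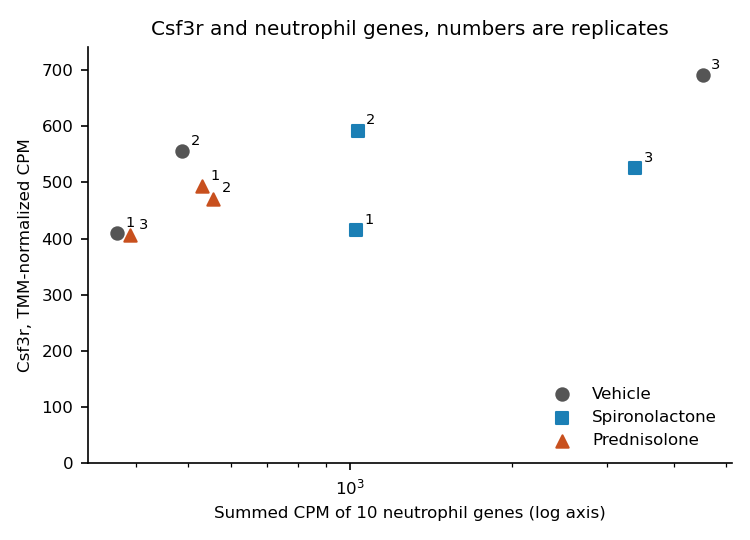
*Csf3r* in TMM-normalized CPM against the summed CPM of 10 neutrophil genes on a log axis, with 1 point per library, the replicate number beside it, and groups marked by shape and color. Vehicle replicate 3 and spironolactone replicate 3 lay far to the right, at 4521 and 3388 CPM, and *Csf3r* spanned 406 to 692 CPM over the 9 libraries.

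The alpha chain gene *Csf2ra* had the smallest SD of log2 CPM over the 9 libraries among the 7 genes, 0.08. *Csf2ra*, on chromosome 19 (61212395 to 61216892, minus strand), measured 631, 747, and 663 CPM in vehicle, 624, 688, and 689 CPM in spironolactone, and 648, 655, and 663 CPM in prednisolone. The prednisolone libraries lay inside the range of both other groups, and their SD was 7.64 CPM against 60.1 CPM in vehicle. The log2 differences from vehicle were -0.03 with a 95% interval of -0.23 to 0.17 for spironolactone and -0.05 with an interval of -0.25 to 0.15 for prednisolone (adjusted p = 0.963 and 0.858, edgeR). *Il3ra*, on chromosome 14 (8113752 to 8123508, minus strand), is the alpha chain gene for IL-3 and was the least abundant of the 7. It measured 77.2, 84.5, and 72.3 CPM in vehicle, 85.4, 76.3, and 85.5 CPM in spironolactone, and 69.7, 69.0, and 76.9 CPM in prednisolone. The drug groups overlapped by 1 library, and the mean was 82.4 ± 5.27 CPM with spironolactone and 71.9 ± 4.40 CPM with prednisolone (SD, n = 3). The difference of 0.20 ± 0.09 log2 units (SE) between the drugs had an unadjusted p of 0.0478 and an adjusted p of 0.217 (edgeR).

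The beta chain genes lie side by side on chromosome 15, *Csf2rb* at 78209952 to 78238047 on the plus strand and *Csf2rb2* at 78166707 to 78189921 on the minus strand. Their coding sequences, of 2691 and 2637 bases in GENCODE transcripts on GRCm39, are identical at 2505 of 2631 aligned bases (95.2%). They are shown because a read that lies wholly within a shared stretch cannot be placed by its sequence. In the most alike stretch of 120 bases, coding positions 2083 to 2202 of both genes (chr15:78232777-78232896 plus strand for *Csf2rb*, chr15:78168952-78169071 minus strand for *Csf2rb2*), no base differs:
Csf2rb and Csf2rb2: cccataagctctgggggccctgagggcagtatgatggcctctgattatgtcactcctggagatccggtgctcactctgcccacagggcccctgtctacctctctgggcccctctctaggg
In the least alike stretch of that length, coding positions 309 to 428 of *Csf2rb* (exon parts within chr15:78223098-78224671) and 312 to 431 of *Csf2rb2* (within chr15:78177038-78178633), 22 bases differ and are given in capitals:
Csf2rb: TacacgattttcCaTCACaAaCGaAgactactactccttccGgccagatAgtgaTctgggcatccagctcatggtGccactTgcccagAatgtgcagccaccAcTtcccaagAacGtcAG
Csf2rb2: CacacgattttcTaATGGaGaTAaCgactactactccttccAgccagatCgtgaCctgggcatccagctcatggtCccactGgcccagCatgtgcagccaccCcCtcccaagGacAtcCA
Windows of 50 bases with an exact copy in the other gene's transcripts made up 26.3% of those in the *Csf2rb* and 26.5% of those in the *Csf2rb2* coding sequence. For windows of 150 bases these shares were 6.49% and 6.63%, and the longest identical run was 242 bases. The read length was not given, so the share of reads that could not be placed is unknown, and the sum of both genes is given beside the value of each.

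*Csf2rb*, the shared beta chain of the GM-CSF, IL-3, and IL-5 receptors, was the only one of the 7 genes with a called difference. It measured 329.5, 313, and 322 CPM in vehicle, 265, 352, and 313 CPM in spironolactone, and 408, 384, and 421 CPM in prednisolone. Every prednisolone library was above every other library, whereas vehicle and spironolactone overlapped. *Csf2rb* was 0.38 log2 units lower in spironolactone than in prednisolone (SE 0.10, 95% interval -0.61 to -0.16, 0.767-fold, adjusted p = 0.0486, edgeR). Against vehicle, prednisolone gave 0.33 ± 0.10 (SE), or 1.26-fold, which did not pass adjustment (adjusted p = 0.140), and spironolactone gave -0.05 ± 0.10 (adjusted p = 0.928).

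The call lay close to the threshold. Leaving out 1 library kept the direction in all 9 cases (-0.49 to -0.28), but the call held only without vehicle replicate 1 (adjusted p = 0.0213) or spironolactone replicate 2 (0.0388). It was lost without vehicle replicate 2 (0.0632) or 3 (0.0523), spironolactone replicate 1 (0.115) or 3 (0.132), or prednisolone replicate 1 (0.142), 2 (0.103), or 3 (0.147). With vehicle replicate 3 and spironolactone replicate 3 both left out, the difference was -0.40 with an adjusted p of 0.139. DESeq2 also called *Csf2rb* in prednisolone against vehicle (adjusted p = 0.0457). *Fn1*, the fibronectin gene that makes up most of the monocyte gene sum, was 1.12 log2 units lower in spironolactone than in prednisolone (adjusted p = 0.00254). The other 6 monocyte genes were not called, and 4 of the 6 had a log2 difference above 0 between spironolactone and prednisolone. *Itgam*, the gene of the sort marker CD11b, was also lower, by 0.43 log2 units (adjusted p = 0.0353). Of the 8 resident macrophage genes, *Lyve1* (-1.60, adjusted p = 0.0338) and *Cd163* (-0.92, adjusted p = 0.0448) were called lower in the same comparison. Of all genes, 5.17% were called there. In this list 6 genes had a negative and 2 a positive log2 difference, with *Folr2* at 0.22 (adjusted p = 0.168, edgeR). Their part in the *Csf2rb* difference was not tested.

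*Csf2rb2*, the beta chain gene that serves IL-3 alone, measured 144, 128, and 122 CPM in vehicle, 124, 138, and 124 CPM in spironolactone, and 144, 144, and 163 CPM in prednisolone. Prednisolone libraries were again the highest, by a small margin over vehicle replicate 1. The difference between spironolactone and prednisolone was -0.23 ± 0.09 log2 units (SE) with an unadjusted p of 0.0302 and an adjusted p of 0.169, and that between prednisolone and vehicle was 0.20 ± 0.09 (adjusted p = 0.368, edgeR). The sum of both beta chain genes was 473, 441, and 445 CPM in vehicle, 389, 490.4, and 437 CPM in spironolactone, and 552, 528, and 584 CPM in prednisolone. The sum was 0.34 ± 0.10 log2 units (SE) lower in spironolactone than in prednisolone and missed the threshold (adjusted p = 0.0638), as did prednisolone against vehicle (0.29 ± 0.10, adjusted p = 0.175). *Csf2rb2* supplied 29.0% ± 1.41 of the beta chain counts in vehicle, 29.5% ± 2.14 in spironolactone, and 27.1% ± 0.897 in prednisolone (SD, n = 3). In vehicle replicate 1, for example, the share was 30.3% with a Wilson 95% interval of 29.6% to 31.1%. Each spironolactone library exceeded each prednisolone library in this share, by 2.37 percentage points in the mean (exact permutation test, two-sided, p = 0.1, the smallest that 3 against 3 allows).

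*Il5ra*, the third alpha chain gene that uses CSF2RB, was not among the 7 genes and showed a called difference where they mostly did not. It marks eosinophils, and its level was low: 4.32, 1.59, and 2.65 CPM in vehicle, 2.28, 3.03, and 2.44 CPM in spironolactone, and 0.699, 0.856, and 0.891 CPM in prednisolone (23 to 30 counts). All prednisolone libraries were below all others. *Il5ra* fell by 1.80 ± 0.36 log2 units (SE) with prednisolone against vehicle (adjusted p = 0.0226) and was 1.66 ± 0.36 higher in spironolactone than in prednisolone (adjusted p = 0.0197), whereas spironolactone against vehicle gave -0.14 ± 0.33 (adjusted p = 0.945, edgeR). The first call was lost without any 1 prednisolone library (adjusted p of 0.0958, 0.117, and 0.0718) with limma-voom (0.0778), and with both neutrophil-rich libraries left out (0.0686). The second was lost without spironolactone replicate 2 (0.0672) or 3 (0.0566), without prednisolone replicate 1 (0.0874), 2 (0.0773), or 3 (0.0563), with limma-voom (0.0501), and with both neutrophil-rich libraries left out (0.0668).

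The eosinophil genes *Ccr3* and *Siglecf* moved the same way as *Il5ra* (shown in the plot of *Il5ra* and eosinophil genes). *Ccr3*, the eotaxin receptor gene, averaged 12.6 ± 2.17 CPM in vehicle, 15.9 ± 4.05 CPM in spironolactone, and 5.47 ± 1.10 CPM in prednisolone (SD, n = 3), and fell by 1.20 ± 0.21 log2 units (SE) with prednisolone (adjusted p = 0.0128, edgeR). *Siglecf*, an eosinophil surface lectin gene, averaged 22.6, 22.7, and 14.4 CPM, and fell by 0.65 ± 0.15 log2 units (adjusted p = 0.0377). Over the whole list of 7 basophil, eosinophil, and mast cell genes, 4 were tested, and *Ccr3* and *Siglecf* were called lower in prednisolone than in vehicle (1.76% of all genes called) and higher in spironolactone than in prednisolone (5.17% of all genes called). The list had summed levels of 38.2 to 57.3 CPM in vehicle, 31.3 to 55.7 CPM in spironolactone, and 19.1 to 24.7 CPM in prednisolone. *Cpa3*, a protease gene of mast cells and basophils, went the other way, at 2.07 to 2.52 CPM in prednisolone against 1.03 to 1.81 CPM in vehicle libraries, and was not called. *Prg2* ran from 0.243 to 23.3 CPM in vehicle libraries, and *Mcpt8*, *Fcer1a*, and *Ms4a2* were below the count filter. The part of eosinophil number in *Il5ra* was not tested. The *Ccr3* call was lost without prednisolone replicate 1 (adjusted p = 0.0615) or 2 (0.0998). That of *Siglecf* held in 3 of 9 fits that left out a library (adjusted p of 0.0160 to 0.157). It was lost without vehicle replicate 2 or 3, spironolactone replicate 3, or any 1 prednisolone library, and also with limma-voom (0.0584) and without both neutrophil-rich libraries (0.0979). Between the drugs, the *Ccr3* call held in all 9 fits that left out a library. The *Siglecf* call between the drugs held in 4 of the 9 (adjusted p of 0.00728 to 0.106, edgeR). It was also lost without both neutrophil-rich libraries (0.0975). In spironolactone against vehicle, *Siglecf* differed by 0.01 ± 0.14 log2 units (SE), and the sign of this value turned with the scaling.

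**Figure D5:**
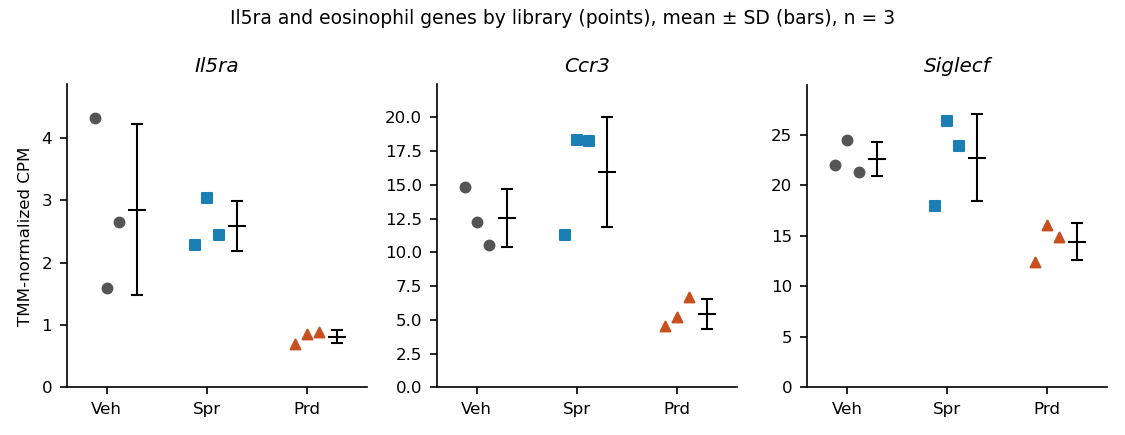
TMM-normalized CPM of *Il5ra*, *Ccr3*, and *Siglecf* in vehicle (Veh), spironolactone (Spr), and prednisolone (Prd) libraries, with 1 point per library and bars for the group mean ± SD (n = 3). The 3 prednisolone libraries lay below the other 6 for each gene, at 0.699 to 0.891 CPM for *Il5ra*.

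Downstream of these receptors, 20 genes of receptor signaling were examined. They include the kinases *Jak1*, *Jak2*, and *Lyn* and the transcription factors *Stat3*, *Stat5a*, and *Stat5b*. All were tested and 0 were called in the 3 comparisons, near the 1.76%, 0.0181%, and 5.17% of all genes called. At an unadjusted p under 0.05 were 1, 0, and 7 of the 20 (14.2%, 9.29%, and 22.5% of all genes). The smallest p in the list was that of *Ptpn11*, a phosphatase gene that relays growth factor signals, which was 0.24 log2 units lower in spironolactone than in prednisolone (unadjusted p = 0.0115, adjusted p = 0.103, edgeR). The list's median log2 fold changes were -0.02 for prednisolone against vehicle, -0.06 for spironolactone against vehicle, and -0.08 for spironolactone against prednisolone.

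Of 10 genes that restrain the receptors, only *Socs1*, a cytokine-inducible inhibitor of Janus kinases, was called, in spironolactone against prednisolone, where 5.17% of all genes were called. In the 3 comparisons 1, 1, and 3 of the 10 had an unadjusted p under 0.05 (14.2%, 9.29%, and 22.5% of all genes). It measured 7.09, 7.14, and 10.4 CPM in vehicle, 11.3, 8.31, and 7.60 CPM in spironolactone, and 4.89, 4.49, and 6.09 CPM in prednisolone. Prednisolone libraries were the lowest. *Socs1* was 0.81 ± 0.21 log2 units (SE) higher in spironolactone than in prednisolone (adjusted p = 0.0411), and prednisolone against vehicle gave -0.67 ± 0.21 (adjusted p = 0.140, edgeR). The call was lost without any 1 spironolactone library (adjusted p of 0.0658 to 0.113) or any 1 prednisolone library (0.0607 to 0.158), with limma-voom (0.0570), and with library totals (0.0508).

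A list of 9 genes often induced by STAT5 or STAT3 shares *Cish*, *Socs2*, and *Socs3* with the list before. In the 3 comparisons 0 of the 9 were called, near the 1.76%, 0.0181%, and 5.17% of all genes called. At an unadjusted p under 0.05 were 4, 5, and 1 of the 9, where 14.2%, 9.29%, and 22.5% of all genes were. The list's median was -0.26 log2 units for prednisolone and -0.31 for spironolactone against vehicle, beside -0.01 and 0.00 for all genes, and 6 of 9 were negative in each. The smallest p belonged to *Ccnd1*, the cyclin D1 gene, which averaged 57.7 CPM in vehicle, 62.6 CPM in spironolactone, and 86.6 CPM in prednisolone (0.58 ± 0.14 log2 units against vehicle, adjusted p = 0.0611, edgeR), opposite in sign to the list's median. In each drug comparison 3 of the 9 genes had every drug library below every vehicle library, and with prednisolone *Ccnd1* and *Myc* had every library above. Of all genes, 19.7% did not overlap in either direction for prednisolone and 13.5% for spironolactone. The lower genes were *Pim1*, a kinase gene, and the survival genes *Mcl1* and *Bcl2l1* of the BCL2 family, named after their values were seen. Their log2 differences from vehicle were -0.54, -0.29, and -0.21 with prednisolone (adjusted p = 0.0884, 0.174, and 0.392) and -0.44, -0.31, and -0.23 with spironolactone (0.326, 0.274, and 0.532).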

How the data were processed

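The authors aligned reads to mm39 with HISAT2 and counted them per gene with HTSeq, and the deposited counts are whole numbers without normalization. The submitters' processing notes name HISAT2 2.2.1, HTSeq 0.11.3, and DESeq2 1.32.0. The annotation release, read length, and strand setting are not given in the sources used here. The deposited tables of the authors' comparisons (base mean, log2 fold change, its error, and p-values from DESeq2) were not used. Lines that name no gene held 17.2% to 21.8% of the reads in a library and were left out.

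The members and gene lists were chosen with earlier results of these data known. Genes were filtered with filterByExpr (minimum count 10, minimum total 15) and tested with the quasi-likelihood test of edgeR 4.0.16 (TMM, robust, all 9 libraries in a single fit, two-sided) in R 4.3.3, with Benjamini-Hochberg adjustment over all 16618 genes. CPM are TMM-normalized. TPM used exon lengths from GENCODE vM39 by symbol, for 40303 symbols with at least 91.0% of the counts. Libraries of the same group differed by more than sampling noise (chi-square per degree of freedom of 18.0 to 57.8). Intervals on shares cover counting error only.

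Named were all 7 members, any family, signaling, brake, or target gene called (else the one with the smallest p in a list), and for members that varied more than the median gene, the 3 genes with the closest log2 pattern. Lists of cell type markers and the other lists gave counts and sums. Alternatives were DESeq2 1.42.0, limma-voom (limma 3.58.1), other normalizations and filters, an *Xist* covariate, a block by replicate number, robust=FALSE, fits on 2 groups, and fits without each library. The tools were tested on simulated data for prednisolone against vehicle, where edgeR called 120 of 200 changed genes and 8 unchanged genes among 16618. DESeq2 called 127 changed and 21 unchanged genes there, and limma-voom 110 and 8. These counts were not split by the size of the difference. The share called at differences as small as those of *Csf2rb* and *Csf2rb2* was not tested.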

Additional observations from a re-analysis of the deposited data

Results flagged for a closer look

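*Csf2rb* had effects of the 2 drugs, each against the same vehicle libraries, that differed in the direct test of that difference. The effect of spironolactone minus the effect of prednisolone was -0.38 log2 units (adjusted p = 0.0486, edgeR), with all 3 spironolactone libraries below all 3 prednisolone libraries. The vehicle libraries cancel in it, so it is the test of spironolactone against prednisolone given above and adds no second result. The *Csf2rb* call was lost in 7 of 9 fits that left out a library, and over the 9 the adjusted p ran from 0.0213 to 0.147. The sum of both beta chain genes missed the threshold (adjusted p = 0.0638, edgeR).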

How the results depend on the processing

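Of the 21 tests of the 7 genes, 11 kept their direction in all 19 alternatives fixed with the tests, and the call changed in 4 (*Csf2rb* and *Csf1* in spironolactone against prednisolone, *Csf2rb* in prednisolone against vehicle, *Csf1* in spironolactone against vehicle). The *Csf2rb* difference between the drugs ran from -0.42 to -0.37 in the 10 alternatives that kept all libraries of the groups, and its call was lost with robust=FALSE (adjusted p = 0.0562) and the *Xist* covariate (0.0628). The smallest group is 3 pools, and a fit that leaves an arm with 2 libraries, or that leaves out 2 libraries, takes the spread from all groups. *Csf2*, *Il3*, and *Il5* lie at the limit of depth. Why values moved was not tested.

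The number of the 7 genes called in prednisolone against vehicle was 1 with DESeq2. In spironolactone against vehicle it was 1 without a low-count filter (*Csf1*, adjusted p = 0.0104). In spironolactone against prednisolone it was 2 with DESeq2, in the fit of 2 groups, and without the filter, 0 with robust=FALSE, with the *Xist* covariate, and with both neutrophil-rich libraries left out, and 0 to 2 with 1 library left out. Over all genes, 293 calls in prednisolone against vehicle became 738 with DESeq2, 1019 without the filter, 120 without the neutrophil-rich libraries, and 69 to 826 with 1 library left out. The 3 calls in spironolactone against vehicle became 293 with DESeq2, 528 without the filter, 0 with limma-voom, robust=FALSE, the *Xist* covariate, or the neutrophil-rich libraries left out, and 0 to 34 with 1 library left out. The 859 calls in spironolactone against prednisolone became 1739 with DESeq2, 1598 in the fit of 2 groups, 1940 without the filter, 285 without the neutrophil-rich libraries, and 232 to 1898 with 1 library left out. Leaving out the neutrophil-rich libraries, and running the alternatives on *Il5ra*, *Socs1*, *Ccr3*, and *Siglecf*, were chosen after seeing the data.

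Between groups, libraries with the same replicate number correlated at -0.04 to 0.15 in their deviations from the group means. Those with different numbers correlated at -0.17 to 0.044. The highest values were those of vehicle with spironolactone in replicate 3 (0.151) and replicate 1 (0.117). Whether the numbers mark libraries handled together was not tested, and the main fit treated them as unpaired. With a replicate block, 336, 8, and 1082 genes were called in the 3 comparisons, and 0, 0, and 1 of the 7 genes, and no call of the 7 genes changed.

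The summed beta chain genes passed in spironolactone against prednisolone with DESeq2 (-0.35, adjusted p = 0.00945), in the fit of 2 groups (-0.35), with library totals (-0.38), and without the filter (-0.36), and ran from -0.43 to -0.26 with 1 library left out, where the call came without vehicle replicate 1 (adjusted p = 0.0287). In spironolactone against vehicle the sum ran from -0.13 to 0.0337 with 1 library left out, and the difference in the *Csf2rb2* share from -0.75 to 1.16 percentage points.

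Differences near 0 turned. *Csf2ra* between the drugs was -0.0118 with library totals and -0.00720 without the neutrophil-rich libraries. With these left out *Csf1r* was -0.0446 for prednisolone against vehicle, and *Il3ra* was -0.00321 and *Csf3r* 0.0581 for spironolactone against vehicle. *Siglecf* for spironolactone against vehicle, 0.01, was -0.000202 with DESeq2, -0.00795 with limma-voom, -0.000200 with RLE, -0.00506 with library totals, -0.00796 with the block, -0.0271 with the *Xist* covariate, and -0.0743 without the neutrophil-rich libraries. With 1 library left out the ranges that crossed 0 were, for prednisolone against vehicle, *Csf1* -0.0198 to 0.43, *Csf1r* -0.0523 to 0.0873, and *Csf2ra* -0.10 to 0.0201. For spironolactone against vehicle they were *Csf1r* -0.10 to 0.0641, *Csf2ra* -0.0810 to 0.0443, *Csf2rb* -0.16 to 0.0494, *Csf2rb2* -0.0850 to 0.0359, *Csf3r* -0.29 to 0.0780, *Il5ra* -0.43 to 0.28, *Socs1* -0.0470 to 0.34, and *Siglecf* -0.11 to 0.15. For spironolactone against prednisolone they were *Csf1r* -0.14 to 0.0470 and *Csf2ra* -0.000738 to 0.0705.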

Other observations

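Marker lists not described with the genes above gave the following, where 5.17% of all genes tested were called in spironolactone against prednisolone and 9.29% had an unadjusted p under 0.05 in spironolactone against vehicle. The lists are short, so a single call is a large share of one. Of 8 dendritic cell genes, 1 was called higher in spironolactone than in prednisolone, and their summed level was 71.2 to 85.6 CPM in vehicle, 82.2 to 144 CPM in spironolactone, and 93.0 to 116 CPM in prednisolone. Of 5 erythroid genes, 4 were tested and 3 were called higher in spironolactone than in prednisolone, with sums of 156 to 264 CPM against 31.5 to 70.3 CPM and 60.9 to 118 CPM in vehicle. Of 6 endothelial genes, 3 were called higher in that comparison. Of 6 lymphocyte genes, 1 was called higher there, at sums of 3.04 to 8.52 CPM over all 9 libraries. The 6 fibro-adipogenic genes (497 to 948 CPM) and 5 of 6 skeletal muscle genes that were tested (179 to 574 CPM) had 0 calls, with 4 each at an unadjusted p under 0.05 in spironolactone against vehicle. Of 8 resident macrophage genes, *Lyve1* and *Cd163* were called lower in spironolactone than in prednisolone. Of 7 monocyte genes, *Fn1* alone was called, and of 7 pan-myeloid genes, *Itgam* alone, both lower in the same comparison.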
